A study of Ovis aries with 36 samples.

Results

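Adductor (AD) and semimembranosus (SM) lie side by side in the medial thigh, and both are hindlimb muscles of the cut known as the leg. Their transcriptomes were compared in 8 of the 36 RNA-Seq samples of the series, AD1 to AD4 and SM1 to SM4, chosen by title and paired by animal number. Each number is 1 of 4 unrelated cross-bred lambs of Poll Dorset type, and each lamb gave both muscles. The lambs were fed soy crop and sorghum grain after weaning and were 14 months old at slaughter, when a piece of the superficial middle of each belly was taken. No group was treated, and the muscle was the only labelled factor that differed between the samples of a lamb. A piece of belly holds fibers of several types together with vessels, nerve, fat and connective tissue, so a change in the share of a cell type and a change in RNA per cell cannot be told apart. The other 28 samples came from 7 further muscles of the same lambs. These were psoas major (PM) and longissimus lumborum (LL) of the loin, supraspinatus (SS) of the shoulder, and rectus femoris (RF), gluteus medius (GM), semitendinosus (ST) and gluteobiceps (GB) of the hindlimb. They helped to set the spread and served as reference.

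Skeletal muscles differ above all in their mix of fibers. Slow oxidative fibers carry slow isoforms of myosin, troponin and tropomyosin, take up calcium with the slow pump encoded by ATP2A2 and burn fat and glucose in mitochondria. Fast fibers carry a different set of isoforms, and a part of them relies on glycolysis. Developmental genes such as the HOX genes also keep a record of the position of a muscle in the body.

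Depth was 3699148 to 6427422 counts in AD and 4407709 to 6360548 in SM, of which only 1009232 to 2002813 lay outside the 4 loci with the most counts. A locus is a stretch of assembled transcripts, with or without an Ensembl gene. The 4 loci with the most counts took 68.9%, 68.8%, 72.0% and 72.2% of the counts in AD1 to AD4, and 77.1%, 70.6%, 78.3% and 73.0% in SM1 to SM4. The share was thus lower in AD in 4 of 4 animals, with a mean of 70.5% ± 1.86 (SD, n = 4) against 74.8% ± 3.59 (two-sided exact permutation test over animals, as far from 0 in 2 of 16 sign assignments, the smallest share that 4 pairs can give). SM1 and SM3 had the largest shares, and the counts of loci are also given without these libraries. They also had the fewest loci with a count, 17217 and 18379, against 20061 to 21652 in the other samples of AD and SM. Levels are given in CPM (counts scaled to a fixed library size) after TMM normalization, and 3 counts correspond to 0.426 to 1.03 CPM in these samples. The TMM factors were 0.665 in SM1 and 0.681 in SM3, against 0.936 to 1.22 in the others. The CPM of SM1 and SM3, and the SM means that include them, thus rest on a larger upward correction. Of 31136 loci, 12461 had enough counts to be tested.

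AD and SM differed in a small part of the transcriptome. Where a fit gave any, more of the differentially expressed loci (DEG) were higher in SM than in AD. The exception was the fit with no filter on low counts, which gave 171 higher in AD and 119 higher in SM. With an FDR threshold of 0.01 and an absolute log2FC above 1, 52 loci were DEG, which is 0.417% of those tested. Of these, 39 were higher in SM (0.313% of the loci tested) and 13 were higher in AD (0.104%). The log2FC comes from the fit and is always AD minus SM. The SE printed after it was computed over animals, from the difference in log2 CPM within each. At loci with few counts the mean of those differences can lie well away from the fitted log2FC, and it is then given as the within-animal mean with its SE. The log2FC ran from -3.13 to -1.01 in the first group and from 1.05 to 4.21 in the second. At an FDR of at most 0.05 with no fold threshold, 414 loci passed (3.32%), with 152 higher in AD (1.22%) and 262 higher in SM (2.10%), and 213 of the 414 differed by no more than 1 on the log2 scale. The median log2FC over all loci was 0.01.

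The number of DEG depended on which animals were included. Without animal 2 or without animal 3 no locus was DEG with edgeR's quasi-likelihood test, while 1780 and 1905 loci had an unadjusted p under 0.05, against 2323 with all animals. Without animal 4 there were 9 DEG and without animal 1 there were 47. With all 4 animals, DESeq2 called 98 (36 higher in AD, 62 in SM) and the likelihood ratio test 143 (57 and 86). Without the pairing by animal, 6 remained past the thresholds, and all 6 were higher in SM. Without SM1 and SM3, 43 loci were called, all of them higher in SM, and 24 of these were among the 39. The 13 loci higher in AD were therefore the less secure group. The direction of all 52 was kept without SM1 and SM3. That is a description, since the loci were chosen by values that include the remaining samples.

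**Figure D1:**
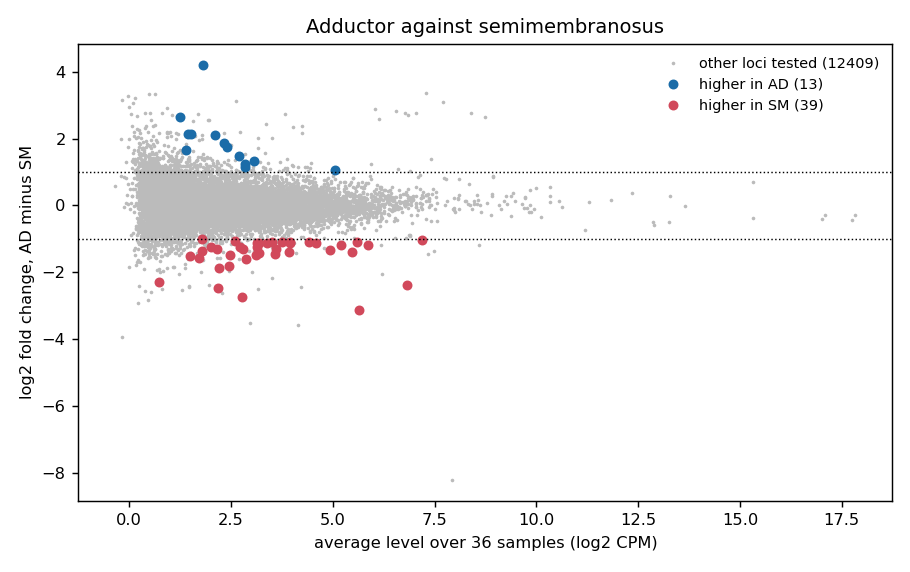
Log2 fold change (AD minus SM) of the 12461 loci tested against their average level over the 36 samples in log2 CPM. Red points are the 39 loci higher in SM and blue points the 13 loci higher in AD, and the dotted lines mark a log2FC of 1 in either direction.

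Of the loci higher in SM, 36 of 39 held an Ensembl gene. Their median level was 15.1 CPM in SM and 6.08 CPM in AD. The difference had the same sign in all 4 animals for 39 of 39, and the ranges of the 4 AD and 4 SM samples did not overlap for 34 of 39. These are descriptions, since the loci were chosen by the same values. Over all loci tested, 23.6% kept 1 sign in all animals and 7.49% had ranges that did not overlap. The files pair no locus with a gene symbol, so these loci are given by position on the Oar_v3.1 assembly, and what their genes do is not stated.

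The locus with the smallest p lies on chromosome 3 from 199861093 to 199865551 and holds ENSOARG00000020724. It was measured at 31.1, 21.9, 27.3 and 27.0 CPM in AD1 to AD4 and at 90.9, 80.7, 64.8 and 48.1 CPM in SM1 to SM4. Every SM sample was above every AD sample. The log2FC was -1.40 ± 0.22 (SE, n = 4) with an FDR of 4.3e-04. SM had the highest mean of the 9 muscles, followed by ST at 55.8 ± 14.3 CPM (SD, n = 4), and AD was next to last at 26.8 ± 3.79 CPM, just above PM at 25 ± 3.39 CPM.

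The largest fold among the 39 was at chromosome 1, 198618107 to 198631249, with ENSOARG00000020509. AD1 to AD4 gave 8.96, 7.43, 7.13 and 10.3 CPM, whereas SM1 to SM4 gave 48.9, 94.7, 80.6 and 61.8 CPM. The SM levels were thus 8.74-fold higher in the fit (log2FC of -3.13 ± 0.31, FDR = 4.3e-04). AD was the lowest of the 9 muscles at 8.46 ± 1.48 CPM, with a narrow spread, and the highest was ST at 151 ± 105 CPM, where animal 1 reached 302 CPM.

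A locus on chromosome 20, from 47732530 to 47873851, was at 3.42, 3.21, 3.84 and 5.49 CPM in AD and at 11.6, 14.9, 11.8 and 10 CPM in SM. The lowest SM sample was above the highest AD sample (log2FC of -1.60 ± 0.26, FDR = 7.0e-04). Another on chromosome 13, from 31334882 to 31447397, was at 4.21, 4.37, 6.40 and 6.46 CPM in AD and at 13.7, 17.5, 17.1 and 12.2 CPM in SM. These groups also did not overlap (log2FC of -1.48 ± 0.22, FDR = 8.5e-04). In both loci SM had the highest mean of the 9 muscles and SS came second.

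A steeper set of loci was highest in ST or SM and lowest in AD. On chromosome 22, the locus from 20409008 to 20424462 had 20.5 ± 10.7 CPM in AD and 102 ± 42.7 CPM in SM (log2FC of -2.39 ± 0.22), and ST reached 429 ± 523 CPM. The SD in ST exceeded its mean, so the level of ST was set by single animals. A second locus of chromosome 22, from 14598701 to 14604325, had 1.19 ± 0.442 CPM in AD and 6.58 ± 2.70 CPM in SM (log2FC of -2.46, within-animal mean of -2.12 ± 0.39). A locus of chromosome 10, from 24474832 to 24508804, had 1.64 ± 0.536 and 11.9 ± 7.90 CPM (log2FC of -2.73, within-animal mean of -2.44 ± 0.28). In each of these 3 loci, all 4 SM samples were above all 4 AD samples.

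The most even difference across animals was that of a locus on chromosome 1, from 175728403 to 175764056. Its levels were 45.3, 34.7, 30.0 and 32.0 CPM in AD and 102, 80.2, 68.8 and 68.1 CPM in SM. Animal 1 was highest in both muscles, and the log2FC of -1.17 varied by an SE of only 0.026 over the 4 animals. Another locus with a small SE, on chromosome 5 from 60404903 to 60427609, had 86.7 ± 19.3 CPM in AD, 179 ± 52.3 CPM in SM, with a log2FC of -1.04 ± 0.069. A pair of loci with different Ensembl genes shared the interval from 28574568 to 28810479 on chromosome 2, with a log2FC of -1.18 ± 0.30 and -1.33 ± 0.52. Reads of loci that share an interval may be divided between them by the counting, so they are not independent. Of the 39 loci, 9 shared their interval with another locus (23.1%, against 29.8% of all loci tested).

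**Figure D2:**
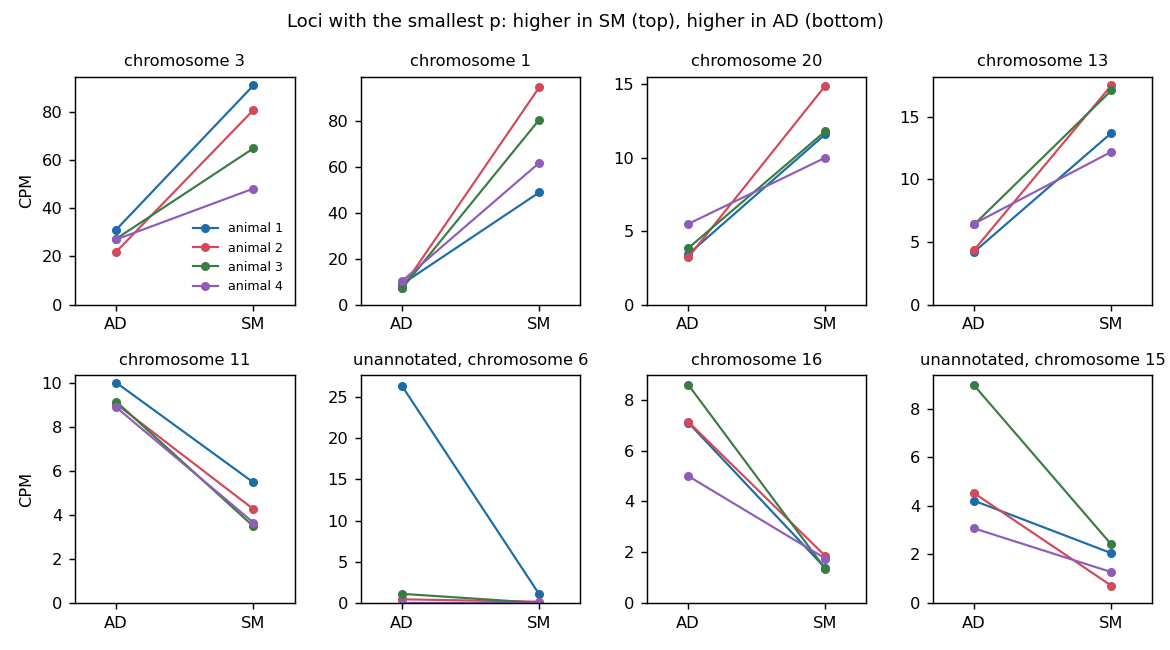
CPM in AD and SM for the 4 loci with the smallest p higher in SM (top row) and the 4 higher in AD (bottom row), with 1 colored line per animal and a separate axis from 0 for each locus. Lines of all 4 animals run in 1 direction except at the unannotated locus of chromosome 6, where animal 1 reached 26.3 CPM in AD and animal 4 was at 0 in both muscles.

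The 13 loci higher in AD had a median of 6.97 CPM in AD and 1.61 CPM in SM. Unannotated loci made up 5 of the 13 (38.5%), against 3 of the 39 higher in SM (7.69%) and 25.4% of all loci tested. In 11 of the 13 all animals had the same sign, and in 11 the groups did not overlap. Over all loci tested these shares were 23.6% and 7.49%. The 13 loci were also chosen by the same values, so these counts are descriptions. Of the 13, 5 shared their interval with another locus (38.5%, against 29.8% of all loci tested).

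The locus with the smallest p lies on chromosome 11 from 26653874 to 26665239 and holds ENSOARG00000011994. It was at 10, 9.03, 9.14 and 8.88 CPM in AD and at 5.47, 4.26, 3.48 and 3.65 CPM in SM. The AD samples hardly varied and all lay above the SM samples (log2FC of 1.15, within-animal mean of 1.09 ± 0.10, FDR = 0.00254). AD had the highest and SM the lowest mean of the 9 muscles, and the AD sample was the highest of the 9 muscles in each of the 4 lambs.

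The largest log2FC of the 13, 4.21 (FDR = 0.00277), was that of an unannotated locus on chromosome 6, from 43210256 to 43215274, and it was carried by 1 lamb. The mean within-animal difference was only 1.75 ± 0.94 log2 CPM (SE, n = 4). AD1 was at 26.3 CPM, whereas AD2, AD3 and AD4 were at 0.437, 1.10 and 0 CPM. SM1 to SM4 were at 1.03, 0.142, 0 and 0 CPM. The SM levels were at or under the level of 3 counts, and so were AD2 and AD4. Over the 9 muscles this locus reached 59.9 CPM in LL of animal 1, while its highest level in any muscle of the other animals was 1.10 CPM. It was thus detected chiefly in 1 animal rather than in 1 muscle.

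A locus of chromosome 16, from 8502099 to 8514379, with ENSOARG00000004972, was at 7.11, 7.14, 8.60 and 5 CPM in AD and at 1.37, 1.85, 1.34 and 1.75 CPM in SM. All AD samples were above all SM samples (log2FC of 2.11, within-animal mean of 1.91 ± 0.23, FDR = 0.00294). AD and SS had similar means, 6.96 ± 1.48 and 6.72 ± 2.51 CPM, and SM was the lowest of the 9 muscles at 1.57 ± 0.26 CPM. On chromosome 15, a pair of unannotated loci shared the interval from 24056993 to 24247780, with a log2FC of 1.75 and 2.14 and within-animal means of 1.49 ± 0.30 and 1.68 ± 0.085. The first was at 4.21, 4.52, 8.96 and 3.07 CPM in AD and at 2.05, 0.711, 2.41 and 1.27 CPM in SM, so that the groups did not overlap. Here AD was in the middle of the 9 muscles and SM stood alone as the lowest, at 1.61 ± 0.766 CPM against 4.14 ± 3.59 CPM in ST, the next. The locus with the smallest log2FC of the 13 (1.05 ± 0.38), on chromosome 10 from 5371053 to 5545654, had 40.9 ± 9.23 CPM in AD and 20.1 ± 7.15 CPM in SM, with AD4 at 29.1 and SM4 at 29.4 CPM. Animal 4 thus showed no higher level in AD at this locus.

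The other 7 muscles gave a reference for both groups of loci. The loci were chosen by their AD and SM values, which by itself moves SM and AD toward opposite ends. The ranks, medians and nearness counts of AD and SM are therefore descriptions, given without a share over all loci tested. Of the 39 loci higher in SM, 29 had their highest mean in SM, 9 in ST and 1 in GB, and the lowest mean was in AD for 16, in PM for 14 and in LL for 9. Relative to the mean of the other 7 muscles, the median of the 39 loci was 0.71 log2 CPM higher in SM and -0.56 in AD. PM and LL, at -0.51 and -0.44, were near AD, whereas ST, at 0.36, came next to SM. Of the 13 loci higher in AD, 12 had their lowest mean in SM, and the highest mean was in AD for 6 and in SS for 5. Their median was -0.82 in SM and 0.49 in AD, with SS at 0.41. The mean of the other muscles was nearer to AD than to SM for 11 of these 13 and for 23 of the 39.

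**Figure D3:**
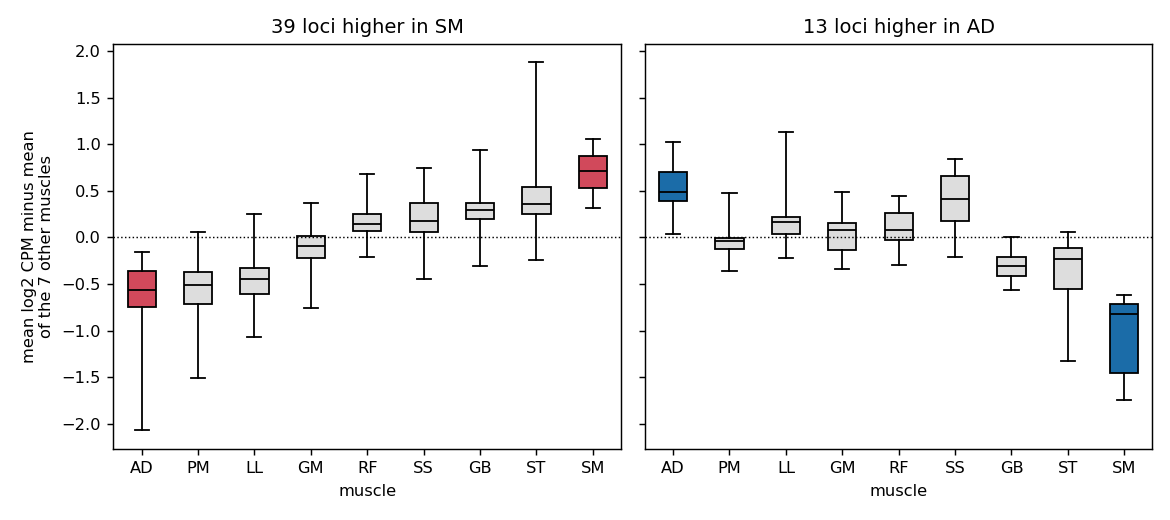
Mean log2 CPM in each of the 9 muscles minus the mean of the 7 muscles other than AD and SM, for the 39 loci higher in SM (left) and the 13 higher in AD (right). Boxes span the quartiles with the median as a line, whiskers reach the lowest and highest locus, and AD and SM are colored. PM and LL lie near AD on the left, and SM lies lowest on the right. The loci were chosen by their AD and SM values.

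Comparisons among these 7 muscles use none of the AD or SM samples, though they come from the same 4 lambs and the same fit. Over the 21 pairs, 23 of the 39 loci higher in SM and 2 of the 13 higher in AD were DEG in at least 1 pair, beside 6.42% of all loci tested. Between ST and PM, 15 of the 39 were higher in ST, where 0.778% of all loci were, and between ST and LL, 14 of the 39 were, where 0.706% were. None of the 39 was called higher in PM or LL in these edgeR comparisons. Across the 28 samples, the 39 loci had a median pairwise correlation of 0.50 in log2 CPM, and of 0.23 once each muscle was centred on its own mean. The 13 loci had 0.25 on both scales. The median correlation with all other loci tested was 0.00. These values describe loci measured in the same libraries and carry no test.

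All 7 slow sarcomere genes that matched a single tested locus had a log2FC above 0 between AD and SM. None passed the test in the fit used here. At the interval of MYL6, given below, 1 of 2 loci was lower in AD (log2FC of -1.09, FDR = 0.0529). It was the locus that ran higher in SS than in ST, as the study listed MYL6. The locus at the interval of MYH7B that ran the same way was higher in AD (0.98, FDR = 0.189). Names were available only for genes whose coordinates the study gave for ST vs SS or SM vs SS. Of 50 such entries, 29 genes and 8 unannotated transcripts each matched a single tested locus. Of 18 slow sarcomere genes considered, 7 had a locus, too few to describe the group as a whole. Their median log2FC was 0.30, none passed an FDR of 0.05, and 2 had an unadjusted p under 0.05. Over all loci tested, 51.1% had a log2FC above 0 and 18.6% an unadjusted p under 0.05. Other fits called a few of the 7 at an FDR of 0.05. MYL3 passed with only the 8 samples of AD and SM, and MYL3 and TNNI1 passed with no filter on low counts. DESeq2 called none of the 7, with 1 at an unadjusted p under 0.05.

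MYL3, the slow essential light chain of myosin, was at 64.5, 52.6, 71.5 and 80.9 CPM in AD and at 50.2, 18.0, 56.8 and 36.7 CPM in SM. AD was above SM in each animal but the groups overlapped (log2FC of 0.79 ± 0.30, unadjusted p = 0.012 in edgeR's test), and its FDR was above the threshold in this fit. TNNI1, the slow inhibitory troponin, gave 29.0 ± 6.04 CPM in AD and 18.3 ± 9.76 CPM in SM (SD, n = 4, log2FC of 0.74 ± 0.32, FDR = 0.248). The slow calcium-binding troponin TNNC1, at 145 ± 27.8 and 118 ± 47.2 CPM, and the slow tropomyosin-binding troponin TNNT1, at 125 ± 27.0 and 104 ± 44.6 CPM, differed less than their spread (log2FC of 0.30 ± 0.28 and 0.28 ± 0.36). The same held for TPM3, the slow tropomyosin, at 75.1 ± 23.1 and 63.4 ± 26.7 CPM (0.27 ± 0.25), for the M-band protein MYOM3 at 11.6 ± 4.77 and 9.39 ± 5.72 CPM (0.42 ± 0.39), and for the Z-disc protein MYOZ2 at 23.2 ± 5.90 and 23.1 ± 12.8 CPM (0.08 ± 0.20).

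The differences in slow genes varied from animal to animal. Within animals, the median difference of the 7 genes was -0.16, 1.35, 0.07 and 0.45 log2 CPM in animals 1 to 4. SM2 was the lowest of the 8 samples for 8 of 8 genes, counting ATP2A2. The median log2FC of the 7 was 0.14 without animal 2 and 0.88 without SM1 and SM3. ST had the lowest mean of the 9 muscles for all 8 of these genes, so neither AD nor SM marked the end of their range.

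The calcium pump of slow fibers, ATP2A2, was at 139.9, 191, 232 and 202 CPM in AD and at 100.5, 81.6, 154 and 107 CPM in SM. AD was above SM in every animal, with a log2FC of 0.78 ± 0.17, but SM3 lay above AD1 and the FDR was 0.0702. It passed an FDR of 0.05 with DESeq2, with only the 8 samples and with no filter. The calcium-binding protein CASQ2 was at 5.41 ± 1.56 CPM in AD and 4.87 ± 1.76 CPM in SM (0.17 ± 0.30). Parvalbumin, PVALB, a calcium buffer of fast fibers in small mammals, had no counts in AD and at most 0.342 CPM in SM, under the level of 3 counts, so no difference was detectable at this depth.

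At positions where several loci share the coordinates, the position alone did not assign the name to 1 of them. At the interval of the slow myosin heavy chain MYH7B, 1 locus had 28 ± 7.70 CPM in AD and 14.3 ± 4.87 CPM in SM (0.98 ± 0.32, FDR = 0.189), and the other 12.8 ± 0.462 and 12.3 ± 2.99 CPM (0.10 ± 0.18). The study listed MYH7B as higher in SS than in ST. The first of these loci was, at 74.2 ± 10.8 CPM in SS and 3.63 ± 1.15 CPM in ST. The other was level, at 12.6 ± 3.04 and 12.7 ± 0.796 CPM. The 2 loci at the interval of MYL2, the slow regulatory light chain, which also covers CCDC63, had a log2FC of 0.30 ± 0.41 and 0.08 ± 0.38. At the interval of MYL6, which the study listed as higher in SS than in ST, 1 locus was level (0.01 ± 0.14). In SS and ST it had 26.9 ± 2.94 and 35.3 ± 3.19 CPM, opposite to the listed direction. The other had 8.85 ± 4.09 CPM in AD and 19.8 ± 15.2 CPM in SM (-1.09 ± 0.35, FDR = 0.0529). This locus was lower in AD in 4 of 4 animals, with SM3 at 42 CPM. Its mean was highest in SS, at 72.1 ± 19.4 CPM, against 4.95 ± 0.879 CPM in ST, the direction the study listed for MYL6. An unannotated locus over the interval of TPM3 was at 10, 13.6, 17.4 and 36.3 CPM in AD and at 9.23, 9.38, 9.37 and 9.05 CPM in SM. Its SM samples were nearly equal and below all AD samples, with a log2FC of 1.03 ± 0.40 and an FDR of 0.0774. The heavy chain genes MYH1, MYH2, MYH4 and MYH7 and the fast pump ATP2A1 could not be paired with a locus.

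Of the 29 named genes 1, TACC2, passed an FDR of 0.05 (3.45%, near the 3.32% of all loci), and it did not pass with any animal left out. This gene, which encodes a coiled-coil protein of centrosomes and microtubules, was at 62.4, 49.0, 58.7 and 47.3 CPM in AD and at 43.1, 21.3, 38.0 and 35.9 CPM in SM. The groups did not overlap (log2FC of 0.68 ± 0.17, FDR = 0.0422). With 1 animal left out the FDR ran from 0.0526 to 0.278, and it was 0.172 without the pairing and 0.0978 without SM1 and SM3. SM was the lowest of the 9 muscles and SS the highest. TACC2 belongs to the genes that the study listed for SM vs SS, and that list was drawn up on the same SM samples, so it is not independent evidence of a low level in SM. Of the 29 named genes, 23 had a log2FC above 0, 10 (34.5%) had an unadjusted p under 0.05 and the median was 0.30. Over all loci tested, 6372 of 12461 were above 0, 18.6% had an unadjusted p under 0.05 and the median was 0.01. Of the 29, 17 were listed for SM vs SS, on the same SM samples, and 17 for ST vs SS, some for both. Among those listed for SM vs SS, 11 were above 0 and 6 had an unadjusted p under 0.05. Among those listed for ST vs SS, the counts were 14 and 5. The 29 are thus not independent of the SM samples.

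Others with a log2FC above 0 in all 4 animals missed the threshold in this fit. CLIP4, a protein with a microtubule-binding domain, had 12.1 ± 2.08 CPM in AD and 8.33 ± 1.37 CPM in SM (0.57 ± 0.16, FDR = 0.0731). MAST2, a microtubule-associated kinase, gave 0.57 ± 0.098 (FDR = 0.138), and KIAA1217 gave 0.55 ± 0.073 (FDR = 0.10). FREM2, a protein of the extracellular matrix, was at 4.08 ± 1.35 and 1.95 ± 1.24 CPM (1.02 ± 0.30, FDR = 0.0519). FREM2 passed an FDR of 0.05 with DESeq2, the likelihood ratio test, RLE size factors, no filter or a mean of at least 10 counts. In the opposite direction, ZFP36L1, an RNA-binding protein that promotes mRNA decay, was at 14.5 ± 1.79 CPM in AD and 18.4 ± 4.01 CPM in SM (-0.34 ± 0.083, FDR = 0.178).

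**Figure D4:**
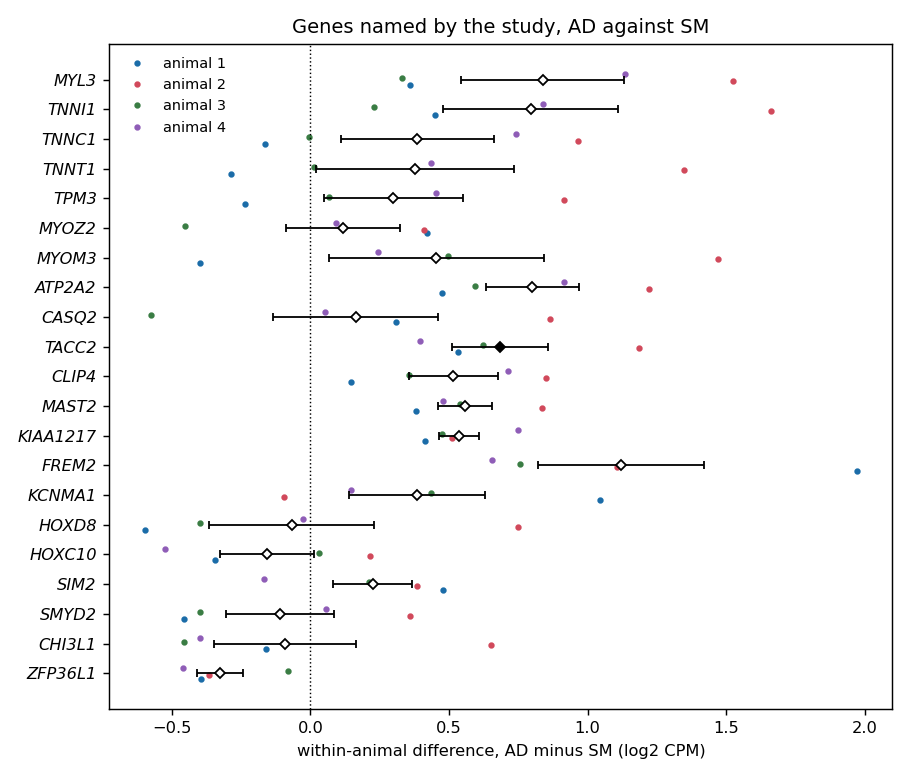
Within-animal difference in log2 CPM, AD minus SM, for 21 genes named by the study. Small points are the 4 animals, diamonds the mean with its SE, and the filled diamond marks TACC2, the gene with an FDR of at most 0.05. Animal 2 (red) gives the largest difference for MYL3, TNNI1, TNNC1, TNNT1 and TPM3.

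Of 51 genes of body position considered, only 3 had a locus, and none of these passed the test, also not at an unadjusted p under 0.05. HOXD8 was at 8.22 ± 1.87 CPM in AD and 8.92 ± 3.33 CPM in SM (log2FC of -0.03 ± 0.30, FDR = 0.972), and HOXC10 was at 3.04 ± 0.631 and 3.42 ± 0.704 CPM (-0.13 ± 0.17, FDR = 0.859). The spread between animals was larger than either difference. The transcription factor SIM2 was at 4.03 ± 1.75 and 3.35 ± 1.17 CPM (0.22 ± 0.14, FDR = 0.729). EYA1, a transcriptional coactivator of muscle development, had no counts in animal 1 in either muscle, and was at 1.75, 1.83 and 1.78 CPM in AD2 to AD4 and at 0.995, 0.535 and 1.11 CPM in SM2 to SM4 (FDR = 0.289). The lysine methyltransferase SMYD2 (-0.12 ± 0.19), the secreted glycoprotein CHI3L1 (-0.11 ± 0.26) and PPP1R3D, a subunit that directs a phosphatase to glycogen (0.03 ± 0.21), also differed by less than the spread between animals. The locus of CHI3L1 also holds another Ensembl gene, so its counts may include both.

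Of 3 unannotated transcripts that the study tied to RORA, a nuclear receptor gene, 2 were higher in AD at an FDR of at most 0.05. Over all loci tested, 1.22% were. Of the 8 unannotated transcripts with a single tested locus, 3 passed, all of them higher in AD. The 3 RORA loci lie next to each other on chromosome 7. The third, from 46275748 to 46290277, was at 12.1, 22.4, 13.7 and 16.9 CPM in AD and at 5.13, 16.5, 9.10 and 7.62 CPM in SM. Each animal had more in AD, with animal 2 highest in both muscles (log2FC of 0.75 ± 0.19, FDR = 0.0223). The first, from 46246545 to 46258218, had 12.9 ± 2.41 and 7.70 ± 3.02 CPM (0.72 ± 0.17, FDR = 0.0373), and the second, from 46258368 to 46267107, had 8.23 ± 1.54 and 5.43 ± 1.60 CPM (0.61 ± 0.15, FDR = 0.101). An unannotated locus on chromosome 2, from 220339844 to 220346024, was at 8.43, 18.1, 13 and 10.7 CPM in AD and at 3.76, 7.82, 5.09 and 7.14 CPM in SM. The groups did not overlap (1.06 ± 0.16, FDR = 0.0141). SM was the lowest and SS the highest of the 9 muscles for all 4 of these loci, which the study listed for SM vs SS on the same SM samples. Without the pairing, the FDR of the 3 loci past the threshold was 0.163 to 0.184, and without SM1 and SM3 it was 0.07 to 0.20. Each of them also lost the call with 1 or more animals left out, among them animal 3, where the FDR was 0.0632 to 0.165.

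A transcript that the study tied to ESRRG, a nuclear receptor of oxidative fibers, falls in an interval of chromosome 12 from 18028459 to 18720283 that is shared by 76 overlapping loci, 51 of them tested. The log2FC was above 0 in 49 of 51, with a median of 0.79, but only 1 passed an FDR of 0.05 (0.0493) and 22 had an unadjusted p under 0.05. Over all loci tested, 51.1% were above 0, 3.32% passed and 18.6% had an unadjusted p under 0.05. The locus that passed averaged only 0.09 log2 CPM and rests on few counts. The 51 loci share 1 interval and are not independent. Their summed level was 891, 255, 332 and 166 CPM in AD and 318, 229, 96.9 and 167 CPM in SM. AD1 was far above the other samples, and in animal 4 the muscles were nearly equal.

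Supraspinatus is known as a slow and semitendinosus as a fast muscle, and the loci that differ between them were followed in AD and SM, whose samples they do not share though they come from the same lambs and fit. Of the 8 slow genes above, 6 had a higher mean in PM than in SS, so SS was not the highest muscle for most of them. SS and ST differed in 189 loci higher in SS (1.52% of those tested) and 96 higher in ST (0.770%). Of the 189, 166 had a log2FC above 0 between AD and SM (87.8%, against 51.1% of all loci), and the median was 0.50. At an FDR of at most 0.05, 14 of them (7.41%, against 1.22% of all loci) were higher in AD and none in SM with edgeR, where 3 had an unadjusted p under 0.05 and DESeq2 called 1. Of the 96 loci higher in ST, 39 were above 0, the median was -0.10, and 11 (11.5%, against 2.10% of all loci) were higher in SM and none in AD, where 5 had an unadjusted p under 0.05 and DESeq2 called 1.

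These medians moved with the animals. For the loci higher in SS, the within-animal median was 0.72, 0.31, 0.73 and 0.20 log2 CPM in animals 1 to 4, above 0 in each. For the loci higher in ST it was -0.30, 0.32, -0.40 and -0.14, with animal 2 on the other side. Animals 1 and 3, whose SM libraries held the largest shares of counts on the 4 highest loci, had the highest medians in the first list and the lowest in the second. Without SM1 and SM3 the medians were 0.34 and 0.07, so that the second changed sign. The part of the library make-up in these values was not tested. Across all 12461 loci, the AD minus SM and SS minus ST differences had a correlation of 0.30, a description over loci that share lambs and fit.

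**Figure D5:**
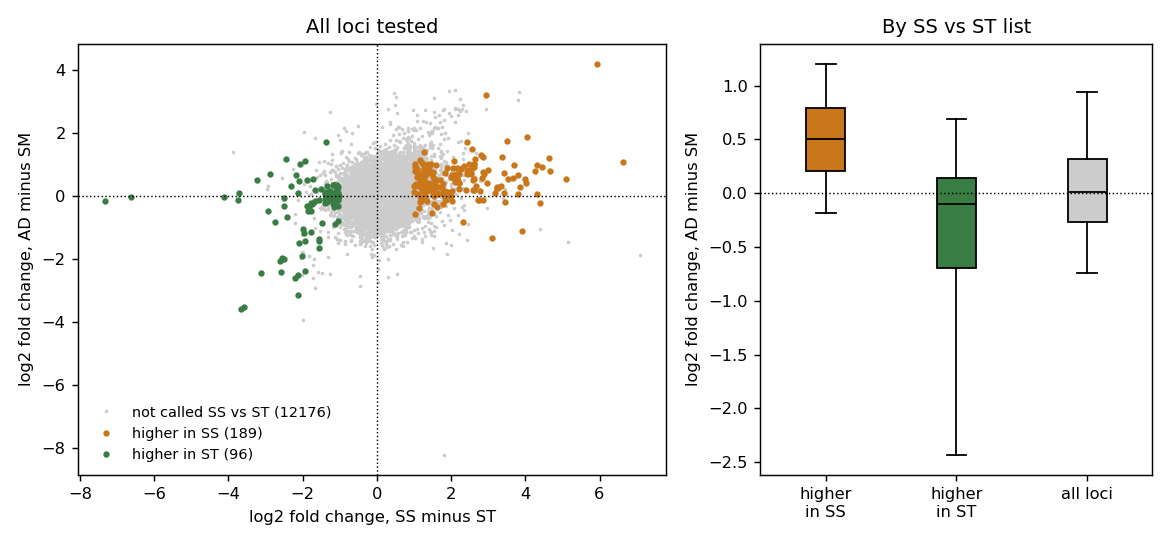
Left, log2 fold change AD minus SM against SS minus ST for the 12461 loci tested, with the 189 loci higher in SS in orange and the 96 higher in ST in green. Right, AD minus SM log2 fold change by list, with the median, the quartiles as a box and the 5th to 95th percentile as whiskers. The medians are 0.50 for the loci higher in SS, -0.10 for those higher in ST and 0.01 for all loci.

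Among the 36 pairs of muscles, the 52 DEG between AD and SM lay just below the middle. The pairs ranged from 0 to 363 DEG with a median of 61, and 14 pairs had fewer and 21 had more than AD and SM.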

How the data were processed

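RNA was extracted with TRIzol, and libraries were sequenced as 100-base paired ends on an Illumina instrument. Per the labels and the methods of the study, the authors used TopHat2 2.0.13 to align reads to the Oar_v3.1 assembly, Cufflinks 2.2.1 to assemble transcripts and HTSeq to count reads per locus. The deposited values are raw counts with no normalization. The 31530 entries hold 31136 distinct loci, and the 394 repeats were dropped. Starts are given 1-based.

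Loci were filtered with filterByExpr by muscle, normalized with TMM and fitted with edgeR 4.0.16 (R 4.3.3) on all 36 samples with muscle and animal as factors. The contrast AD minus SM was tested with the quasi-likelihood test, with Benjamini-Hochberg FDR over 12461 loci. SEs come from the 4 within-animal differences in log2 CPM (prior count 2). The number in the sample titles gave the pairing, and deviations of AD and SM from their muscle means correlated by 0.302, 0.200, 0.216 and 0.157 in animals 1 to 4. Samples with different numbers were not compared in this way, so these values do not test the pairing. No 2 samples of AD or of SM agreed within sampling noise (chi-square per degree of freedom of 5.12 to 18.2), which separate lambs would not do in any case and which bears only on a library entered under several animals. DESeq2 1.42.0, other fits and filters, and each animal left out were tried as alternatives.

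The muscles, loci and gene lists were chosen with earlier results of these data known. Names come from coordinates in the tables of the study, since the locus identifiers are not paired with symbols and the RefSeq gene table used here holds no Ensembl identifiers. A name was given where a single tested locus with an Ensembl gene covered the coordinates. Of 50 entries, 8 covered several loci, 1 covered many, 2 had no tested locus and 2 had coordinates in doubt. Named loci are the 4 with the smallest p in each direction, the fiber type genes, and genes of the study, and further loci among the 52 were chosen after their values were seen. Some results that this rule covers are not reported here. No list of pathways or of other cell types had 80% of its genes paired with a locus, and the markers of fat, vessel, nerve, blood and connective tissue had none, so the cell make-up of the samples was not checked. Floors cover counting error only. No sequence was used.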

Additional observations from a re-analysis of the deposited data

Results flagged for a closer look

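Within the 4 samples of a muscle, 7 of 211 groups examined for the loci with a name or past the thresholds had 1 sample far from the others, by Dixon's criterion on log2 CPM (the gap to the nearest sample as a share of the range). That is 3.32%, and chance alone gives about 1 in 20. The loci at the shared interval of CCDC63 and MYL2 were entered under both names, so the 211 groups are not all distinct. EYA1 had no counts in AD1, against 1.75 to 1.83 CPM in the other AD samples (0.979). HOXC10 was low in AD4, at 2.10 CPM against 3.29 to 3.42 (0.917). The unannotated RORA transcript with the lowest coordinates was high in AD2, at 16.5 CPM against 11.3 to 11.9 (0.881). A locus at the coordinates of STXBP5L was high in AD2, at 2.04 CPM against 1.58 to 1.65 (0.844). Among the loci higher in SM, one on chromosome 6 from 3777526 to 3840343 was low in AD4, at 7.10 CPM against 8.05 to 8.17 (0.895), one on chromosome 3 from 68110761 to 68206882 was high in SM2, at 22.6 CPM against 12.6 to 12.7 (0.984), and one on chromosome 4 from 100654050 to 100763077 was high in AD1, at 1.58 CPM against 0.323 to 0.437 (0.851).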

How the results depend on the processing

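The direction of the 52 loci past the thresholds was kept under each alternative listed here that tested them, but their number was not. The 52 were chosen by their AD and SM values, and each alternative used the same samples or a part of them. The kept direction is therefore a description. The main count was 52 loci (13 higher in AD, 39 in SM) and 414 at an FDR of at most 0.05. The likelihood ratio test gave 143 (57 and 86) and 648, only the 8 samples of AD and SM 26 (1 and 25) and 216, no filter on low counts 290 (171 and 119) and 753, and DESeq2 98 (36 and 62) and 462. An FDR of at most 0.05 with the same fold threshold gave 201 (90 and 111). The fit with no replicate block, which drops the pairing by animal, gave 6 (0 and 6) and 96, with 1734 loci at an unadjusted p under 0.05. Without SM1 and SM3, chosen after seeing the data, 0 loci were higher in AD, 43 in SM and 261 passed an FDR of 0.05. Leaving out 1 animal gave 0 to 47 loci (0 to 4 in AD, 0 to 43 in SM) and 62 to 280. RLE size factors, a mean of at least 10 counts and leaving out the 4 highest loci gave 49, 49 and 54. The cause of these shifts was not tested. Named genes past an FDR of 0.05 numbered 1 (TACC2), 2 with the likelihood ratio test, RLE size factors or a mean of at least 10 counts, 3 with DESeq2 or only the 8 samples, 5 with no filter, and 0 with no replicate block, without SM1 and SM3, or with any 1 animal left out. The medians of the SS vs ST lists ran from 0.34 to 0.60 and from -0.30 to 0.07. With 1009232 to 2002813 counts outside the 4 highest loci, loci near 1 CPM rest on a few counts.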

Other observations

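A set of well expressed loci differed widely between AD and SM without passing the test. Those with an average above 5.5 log2 CPM and a log2FC above 1.5 were 10, all unannotated and spanning 235 to 5985 bases, and only 3 lay on a numbered chromosome. Their log2FC ran from 2.58 to 3.36 with FDR from 0.135 to 0.233. The summed level was 5556, 1627, 2519 and 718 CPM in AD1 to AD4 and 141, 256, 671 and 1579.5 CPM in SM1 to SM4. All 10 were higher in AD in animals 1 to 3, and none was in animal 4. Over the 36 samples the sum was highest in SS2, at 9652 CPM, and in ST4, at 7619 CPM. These loci were chosen after their values were seen.

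A locus on chromosome 11, from 9182706 to 9182869, had 7.11, 0.291, 0.732 and 0.968 CPM in AD and 0.342, 216, 1031 and 854 CPM in SM (log2FC of -8.22, FDR = 0.0821). Within animals the mean was -6.05 ± 3.2 log2 CPM (SE, n = 4), and AD held 39 counts in all. It was high in SM of animals 2 to 4 and under the level of 3 counts in SM1, and it was also chosen after its values were seen.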
